A study of Mus musculus with 4 samples.

Results

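Ribosome biogenesis and RNA polymerase I genes were followed in livers labelled Dph1 KO (n = 2) and in livers labelled Control (n = 2). The members are the gene entries named Nop, Rrp, Utp or Nol with a number, those whose names begin with Polr1, and the 13 genes Fbl, Ncl, Npm1, Dkc1, Nhp2, Gar1, Bop1, Pes1, Wdr12, Rrs1, Ddx21, Tsr1 and Ltv1, without pseudogenes. The choice by name took 50 of 35522 genes. All 4 libraries came from liver tissue of C57BL/6 mice that had been given diethylnitrosamine (DEN), a liver carcinogen, 1 day earlier, so that both genotypes carry the same treatment. The genotypes are Dph1 KO, named for loss of Dph1, a gene of diphthamide synthesis on the translation factor eEF2, and Control. How and in which cells Dph1 was removed, the age and sex of the mice, and whether each library is a separate animal are not stated in the labels. The p-values therefore reflect the spread between these libraries alone, and that spread may be technical.

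Ribosomes are built in the nucleolus. RNA polymerase I transcribes one long precursor of ribosomal RNA, small nucleolar RNA-protein particles guide its chemical modification, and large assemblies cut it and fold it with ribosomal proteins into the 40S and 60S subunits. In liver this production line is known to respond to feeding, growth and regeneration, and faults in it can stabilise p53.

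The libraries held 20410978 and 21137358 gene reads in Dph1 KO and 19474596 and 20355790 in Control. Dph1 itself had 17.8 and 31.5 CPM in Dph1 KO and 70.3 and 68.3 CPM in Control, where CPM are read counts relative to the library total after TMM scaling, which sets the libraries to a common level. This is a log2 change of -1.49 with an SE of 0.26, at a Benjamini-Hochberg adjusted p of 0.0107 in edgeR's quasi-likelihood test. All 10 hepatocyte markers on a list had reads in every library. Summed CPM without TMM scaling of the Kupffer cell and macrophage list spanned 263 to 428 in Dph1 KO and 353 to 358 in Control, and no defining marker of that list was at 0. The erythroid list stood at 408 to 409 CPM in Dph1 KO and 642 to 1299 CPM in Control, and the list of proliferating cells at 2.93 to 3.04 CPM in Dph1 KO and 1.75 to 2.11 CPM in Control. The sinusoidal endothelial list stood at 298 to 317 CPM in Dph1 KO and 333 to 339 CPM in Control. The bile duct list stood at 40.6 to 48.8 CPM in Dph1 KO and 50.01 to 59.4 CPM in Control. For B and plasma cells the sums were 3.36 to 4.41 CPM in Dph1 KO and 5.34 to 5.797 CPM in Control. The genotypes overlapped in the hepatocyte, Kupffer cell and macrophage, stellate and contractile, T and NK cell and neutrophil lists. The part of these cell types in the results was not tested. In whole liver, fewer cells of a type and less RNA per cell cannot be told apart.

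The ribosome production genes that passed the test were spread over polymerase I, both kinds of small nucleolar particle and both subunits. Of 49 tested members, 7 fell and 2 rose in Dph1 KO livers, and 40 were not called (edgeR's quasi-likelihood test with Benjamini-Hochberg adjustment over 13303 genes, threshold 0.05). Those that fell were Rrp9, Nol6, Polr1c, Bop1, Rrp7a, Nhp2 and Polr1d, and those that rose were Nol7 and Utp3. Over all tested genes, 7.47% were called lower and 4.86% higher, 12.3% in all, against 14.3% and 4.08% of the members, 18.4% in all. The median log2 fold change of the members was -0.04, against 0.04 over all tested genes, and the median size of a change was 0.32 in the members and 0.42 over all genes. Both Dph1 KO libraries lay below both Control libraries for 20 members and above both for 14. These are 40.8% and 28.6% of the tested members, where the same order held for 32.5% and 34.9% of all tested genes. In 38 of the 49 members the log2 fold change lay between -0.5 and 0.5. This share was not computed over all genes, whose median size of 0.42 also lies within that range. A size above 1 was reached by 3 of the 49 members and by 10.1% of all genes.

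**Figure D1:**
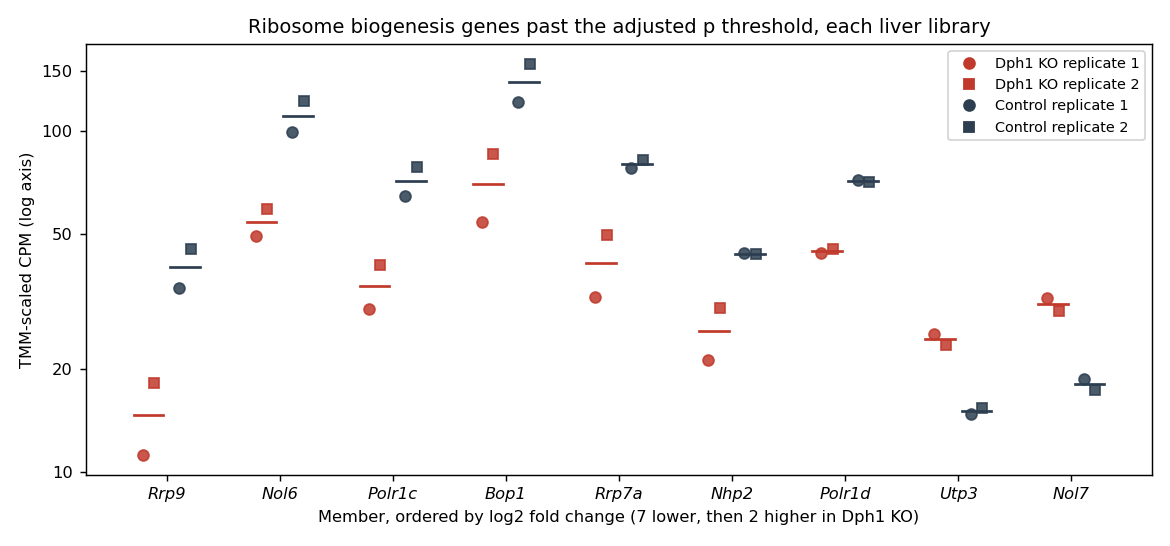
TMM-scaled CPM (log axis) of the 9 called members in each library, with Dph1 KO in red to the left of Control in dark blue; circles are replicate 1, squares replicate 2 and bars the mean. In the 7 members on the left both Dph1 KO libraries lie below both Control libraries, and in Utp3 and Nol7 both lie above.

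Without scaling beyond the library total, 5 members (Rrp9, Nol6, Polr1c, Bop1 and Rrp7a) were called lower and 5 (Nol7, Utp3, Wdr12, Utp20 and Rrp36) higher, beside 5.93% lower and 19.8% higher of all genes, and the median over all genes moved to 0.30. The member median was then 0.23, which lay below the median of all genes as it did with TMM. Leaving out Dph1 KO replicate 1 left 6 members lower and 2 higher where 9.74% of all genes were called, and leaving out Dph1 KO replicate 2 left 8 lower and 3 higher where 39.3% were called. Leaving out Control replicate 1 left 4 lower (Rrp9, Nol6, Polr1c and Bop1) and 0 higher beside 5.43% of all genes, and leaving out Control replicate 2 left 1 lower (Rrp9) and 0 higher beside 3.82%. Limma-trend on the deposited TPM called 0 members, with 0.0226% of all genes called at a pseudocount of 1 and 0.173% at 0.1.

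The RNA polymerase I subunits came first in the order of production. Polr1a and Polr1b encode its large catalytic subunits, Polr1e an accessory subunit, and Polr1c and Polr1d the small assembly subunits that RNA polymerase III also uses. Of the 5 subunits named Polr1, the 2 shared ones were called lower. In 4 of the 5, all but Polr1a, both Dph1 KO libraries lay below both Control libraries. Of all tested genes, 32.5% had this order. Polr1c (chr17:46243920-46248045, GRCm38) had 29.96 and 40.4 CPM in Dph1 KO, against 64.3 and 78.5 CPM in Control, with a log2 fold change of -1.02 (SE 0.22; edgeR adjusted p = 0.0223). Both Dph1 KO libraries were low and the genotypes did not overlap. Polr1d (chr5:147077541-147111359) had 43.9 and 45.1 CPM in Dph1 KO, against 71.8 and 70.7 CPM in Control, with a log2 fold change of -0.68 (SE 0.20; edgeR adjusted p = 0.0468). Replicates lay close together in each genotype, and 72.5% of Polr1d reads matched a single place.

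The other 3 subunits named Polr1 were not called. Polr1a had 35.0 and 30.9 CPM in Dph1 KO, against 27.8 and 29.0 CPM in Control, a log2 fold change of 0.21. Polr1b had 22.2 and 21.8 CPM in Dph1 KO and 25.1 and 23.9 CPM in Control. Polr1e had 6.91 and 6.22 CPM in Dph1 KO and 9.03 and 8.73 CPM in Control, a log2 fold change of -0.44 (SE 0.22, edgeR adjusted p = 0.188). With each library's trend in transcript GC content and length removed, Polr1c (-0.67) was called. Polr1d (-0.48) and Polr1e (-0.40) were then not called. Polr1e had the lowest level of the 5 subunits named Polr1, per length as well, at 4.09 ± 0.86 TPM in Dph1 KO and 4.25 ± 0.33 TPM in Control (SD, n = 2 each). TPM, which scale reads by transcript length and library, are given here only for levels between genes and for ratios within a library, since they carry no TMM scaling. The Polr1c call was lost without Control replicate 2, and the Polr1d call without either Control library.

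Ratios within a library do not depend on how libraries are scaled. The TPM ratio of Polr1c to Polr1a was 4.24 and 6.64 in Dph1 KO livers and 11.7 and 13.3 in Control livers. That of Polr1d to Polr1a was 5.42 and 6.39 in Dph1 KO and 11.3 and 10.4 in Control. Transcripts of the shared subunits thus had several times the TPM of Polr1a in every library, with a smaller excess in Dph1 KO. Exon length was 6109 bases in Polr1a, 1305 in Polr1c and 1486 in Polr1d, and its part in these ratios was not tested. Protein levels were not measured. For Polr1b the ratio to Polr1a was 0.965 and 1.13 in Dph1 KO and 1.43 and 1.28 in Control, and for Polr1e it was 0.398 and 0.429 in Dph1 KO and 0.680 and 0.619 in Control. In all 4 ratios the genotypes did not overlap, with an exact two-sided permutation p of 0.333, the smallest that 2 against 2 libraries allow. These are among 12 ratios within complexes, chosen after the members' values were seen, and none can pass a threshold of 0.05 at this number of libraries. The 4 ratios share Polr1a as denominator and are not separate observations. With TMM scaling the log2 fold change was 0.21 for Polr1a and -0.44 for Polr1e, and neither was called. In CPM, both Dph1 KO libraries lay above both Control libraries for 34.9% of all tested genes and below for 32.5%. No such share was computed for ratios.

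**Figure D2:**
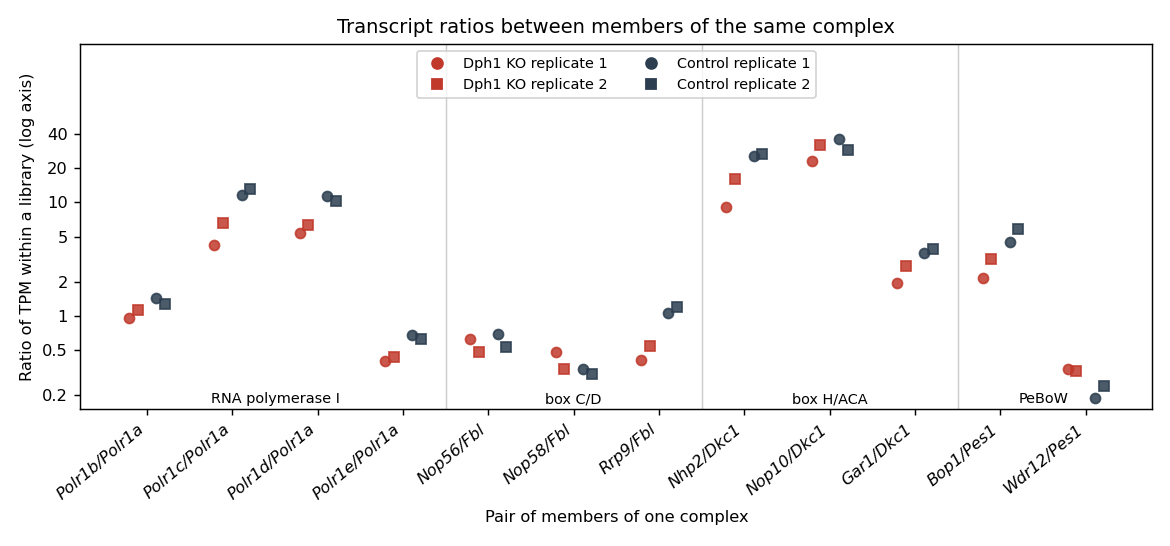
Ratio of TPM between members of one complex within each library (log axis), Dph1 KO in red left of Control in dark blue, with circles for replicate 1 and squares for replicate 2. Polr1c over Polr1a, Rrp9 over Fbl, Nhp2 over Dkc1 and Bop1 over Pes1 lie lower in both Dph1 KO libraries, and Wdr12 over Pes1 lies higher.

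Box C/D particles carry the methylation of ribosomal RNA, with fibrillarin, encoded by Fbl, as the methyltransferase and Nop56 and Nop58 as its scaffold. Rrp9 belongs to the U3 particle, which is needed for cutting the precursor rather than for methylating it. Rrp9 (chr9:106477309-106485415) had the largest change of any member, at 11.2 and 18.2 CPM in Dph1 KO, against 34.5 and 45.0 CPM in Control. It was 2.71-fold lower in Dph1 KO (log2 fold change -1.44, SE 0.26; edgeR adjusted p = 0.0111), and it was the one member called with any single library left out.

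The core methylation proteins were not called. Fbl had 20.3 and 25.4 CPM in Dph1 KO and 24.6 and 28.8 CPM in Control, and the genotypes overlapped. Only 15.96% of Fbl reads matched a single place, so this value is uncertain. Nop56 had a log2 fold change of -0.40 and Nop58 of 0.05. The TPM ratio of Rrp9 to Fbl was 0.404 and 0.544 in Dph1 KO and 1.06 and 1.19 in Control, while those of Nop56 and Nop58 to Fbl overlapped between the genotypes. Transcript GC content was 59.9% in Rrp9 and 52.1% in Fbl, and its part in this ratio was not tested.

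Box H/ACA particles convert uridines of ribosomal RNA into pseudouridine. Dkc1 encodes dyskerin, the pseudouridine synthase, and Nhp2, Nop10 and Gar1 encode its partner proteins, which telomerase also contains. Nhp2 (chr11:51619773-51623714) fell, with 21.3 and 30.3 CPM in Dph1 KO, against 43.7 and 43.4 CPM in Control (log2 fold change -0.76, SE 0.22; edgeR adjusted p = 0.0468). Within genotypes the Dph1 KO pair was the more spread, and the call was lost without either Control library and without Dph1 KO replicate 1.

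The other H/ACA members were not called. Dkc1 had 6.91 and 5.26 CPM in Dph1 KO and 5.004 and 4.73 CPM in Control. Gar1 had 6.91 and 7.68 CPM in Dph1 KO and 9.08 and 9.18 CPM in Control. Nop10, the most abundant member per length in the mean over the 4 libraries, at 112 ± 10.3 TPM in Dph1 KO and 81.5 ± 19.97 TPM in Control (SD, n = 2 each), had 37.7 and 41.3 CPM in Dph1 KO and 42.3 and 32.6 CPM in Control, and the genotypes overlapped in CPM. The TPM ratio of Nhp2 to Dkc1 was 9.12 and 16.2 in Dph1 KO and 25.9 and 26.8 in Control. Transcript GC content was 54.1% in Nhp2 and 43.6% in Dkc1, and its part in this ratio was not tested either.

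The small subunit processome, which assembles on the 5′ part of the precursor and matures the 40S subunit, held members that fell and members that rose. Of its 16 members, 2 fell, 2 rose and 12 were not called, and the median log2 fold change was 0.25. After correction of each library for a trend with transcript GC content and length, the same median was 0.02. Nol6 (chr4:41114427-41124339) had 49.3 and 58.8 CPM in Dph1 KO, against 99.4 and 122 CPM in Control, and was 2.05-fold lower (log2 fold change -1.03, SE 0.22; edgeR adjusted p = 0.0200). Rrp7a (chr15:83115846-83122801) had 32.6 and 49.4 CPM in Dph1 KO, against 77.9 and 81.9 CPM in Control (log2 fold change -0.96, SE 0.24; edgeR adjusted p = 0.0312). Both genes lay lower in both Dph1 KO libraries, and Dph1 KO replicate 1 was the lower of the pair. Rrp7a overlaps Serhl on the other strand by 826 bases and 77.6% of its reads were unique. With unique reads alone its log2 fold change was -0.98.

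Nol7 (chr13:43398376-43402858) and Utp3 (chr5:88554483-88556083), both nucleolar processome proteins, rose. Nol7 had 32.4 and 29.6 CPM in Dph1 KO, against 18.8 and 17.4 CPM in Control, 1.72-fold higher (log2 fold change 0.78, SE 0.19; edgeR adjusted p = 0.0312). Utp3 had 25.3 and 23.6 CPM in Dph1 KO, against 14.7 and 15.3 CPM in Control, 1.63-fold higher (log2 fold change 0.70, SE 0.19; edgeR adjusted p = 0.0425). Replicates of each genotype lay close together in both genes. Nol7 overlaps Ranbp9 on the other strand by 186 bases, and no other gene entry overlaps Utp3. The calls of Nol7, Utp3 and Rrp7a were lost without either Control library, and that of Nol6 without Control replicate 2.

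The 12 processome members that were not called had log2 fold changes from -0.04 (Utp18) to 0.48 (Utp20). Both Dph1 KO libraries lay above both Control libraries in 10 of the 16 processome members, the called ones included, where 34.9% of all tested genes had this order. Utp20, a scaffold protein, had 52.6 and 40.2 CPM in Dph1 KO and 33.2 and 33.4 CPM in Control (edgeR adjusted p = 0.128). Rrp36 had 26.2 and 25.8 CPM in Dph1 KO and 20.3 and 18.7 CPM in Control (edgeR adjusted p = 0.147). With the GC and length correction the log2 fold change was 0.027 for Utp20, which was not called, and 0.73 for Rrp36, which was. Utp14b is a retrotransposed copy of the X-linked Utp14a within Acsl3, known in mice for its role in sperm formation. Only 1.21% of its 75 and 28 reads in Dph1 KO and 42 and 20 reads in Control were unique, so its level here cannot be told from that of related sequence.

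Tsr1, Ltv1 and Rrp12 act late, when the small subunit leaves the nucleus and matures in the cytoplasm, and none was called by edgeR or by DESeq2. Tsr1 had 19.9 and 14.9 CPM in Dph1 KO and 18.2 and 15.2 CPM in Control. Ltv1 had 17.3 and 15.9 CPM in Dph1 KO and 14.2 and 13.6 CPM in Control. Rrp12, an export factor, had 17.2 and 16.3 CPM in Dph1 KO and 28.8 and 21.4 CPM in Control, a log2 fold change of -0.58 (SE 0.21; edgeR adjusted p = 0.0858), and it was the 1 gene of the 3 with an unadjusted p under 0.05.

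For the 60S subunit, 1 of 11 members fell and 10 were not called, with a median log2 fold change of -0.27. With the GC and length correction the median was -0.02 and the 1 call, Bop1, was lost. Bop1, Pes1 and Wdr12 form the PeBoW complex, which processes the precursor of the large-subunit RNAs. Bop1 (chr15:76452996-76477269) had 53.9 and 85.8 CPM in Dph1 KO, against 121 and 158 CPM in Control (log2 fold change -0.998, SE 0.26; edgeR adjusted p = 0.0390). Both Dph1 KO libraries were low, though Dph1 KO replicate 2 lay well above replicate 1, and the call was lost without Control replicate 2.

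Its partners were not called. Pes1 had 30.3 and 33.1 CPM in Dph1 KO and 32.3 and 32.3 CPM in Control, and the genotypes overlapped. Wdr12 had 12.1 and 12.2 CPM in Dph1 KO and 7.18 and 9.29 CPM in Control, with a log2 fold change of 0.56 that was not called (SE 0.22; edgeR adjusted p = 0.106). With the GC and length correction the Wdr12 value was 0.096 and was not called. The TPM ratio of Bop1 to Pes1 was 2.14 and 3.19 in Dph1 KO and 4.50 and 5.83 in Control. The ratio of Wdr12 to Pes1 was 0.339 and 0.325 in Dph1 KO and 0.189 and 0.241 in Control. The GC content of these transcripts runs in the same order, at 58.2% in Bop1, 50.3% in Pes1 and 40.4% in Wdr12, and its part in the ratios was not tested. The genotypes did not overlap in either ratio (exact two-sided permutation p = 0.333, the smallest possible). Rrs1, needed to bring the 5S particle into the large subunit, had 11.6 and 14.0 CPM in Dph1 KO and 15.99 and 14.5 CPM in Control and was not called.

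The genes of the abundant nucleolar proteins had small changes with TMM scaling and lower values in Dph1 KO with the GC and length correction, and for Ncl and Npm1 the genotypes overlapped in CPM. Nucleolin, encoded by Ncl, binds ribosomal RNA and its gene, and it had 118 and 106 CPM in Dph1 KO and 107 and 120.3 CPM in Control. Npm1 encodes nucleophosmin, a chaperone that helps form the nucleolus, and it had 58.6 and 50.04 CPM in Dph1 KO and 51.8 and 60.1 CPM in Control. Ddx21, an RNA helicase gene, had 41.7 and 42.4 CPM in Dph1 KO and 48.0 and 44.7 CPM in Control. The log2 fold changes of the 3 genes lay between -0.14 and -0.02 with SEs of 0.19 to 0.21, and none was called. With the GC and length correction they were -0.62 for Ncl, which was then called lower, -0.46 for Ddx21 and -0.34 for Npm1. The median of the 5 nucleolar members moved to -0.37, against -0.04 with TMM alone. Exon length in the correction was 8257 bases for Ncl and 1718 for Npm1, with GC content of 42.8% and 42.4%. The part of length in the Ncl value was not tested. For Npm1, 74.1% of reads were unique.

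The name rule also took genes that do not belong to ribosome production. Nol3 encodes an inhibitor of apoptosis, and it had 1.31 and 2.47 CPM in Dph1 KO and 3.21 and 2.00 CPM in Control. Nol4 was the member left out of the test by the filter on low counts, with 7 and 13 reads in Dph1 KO and 7 and 4 in Control, all of them in introns.

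**Figure D3:**
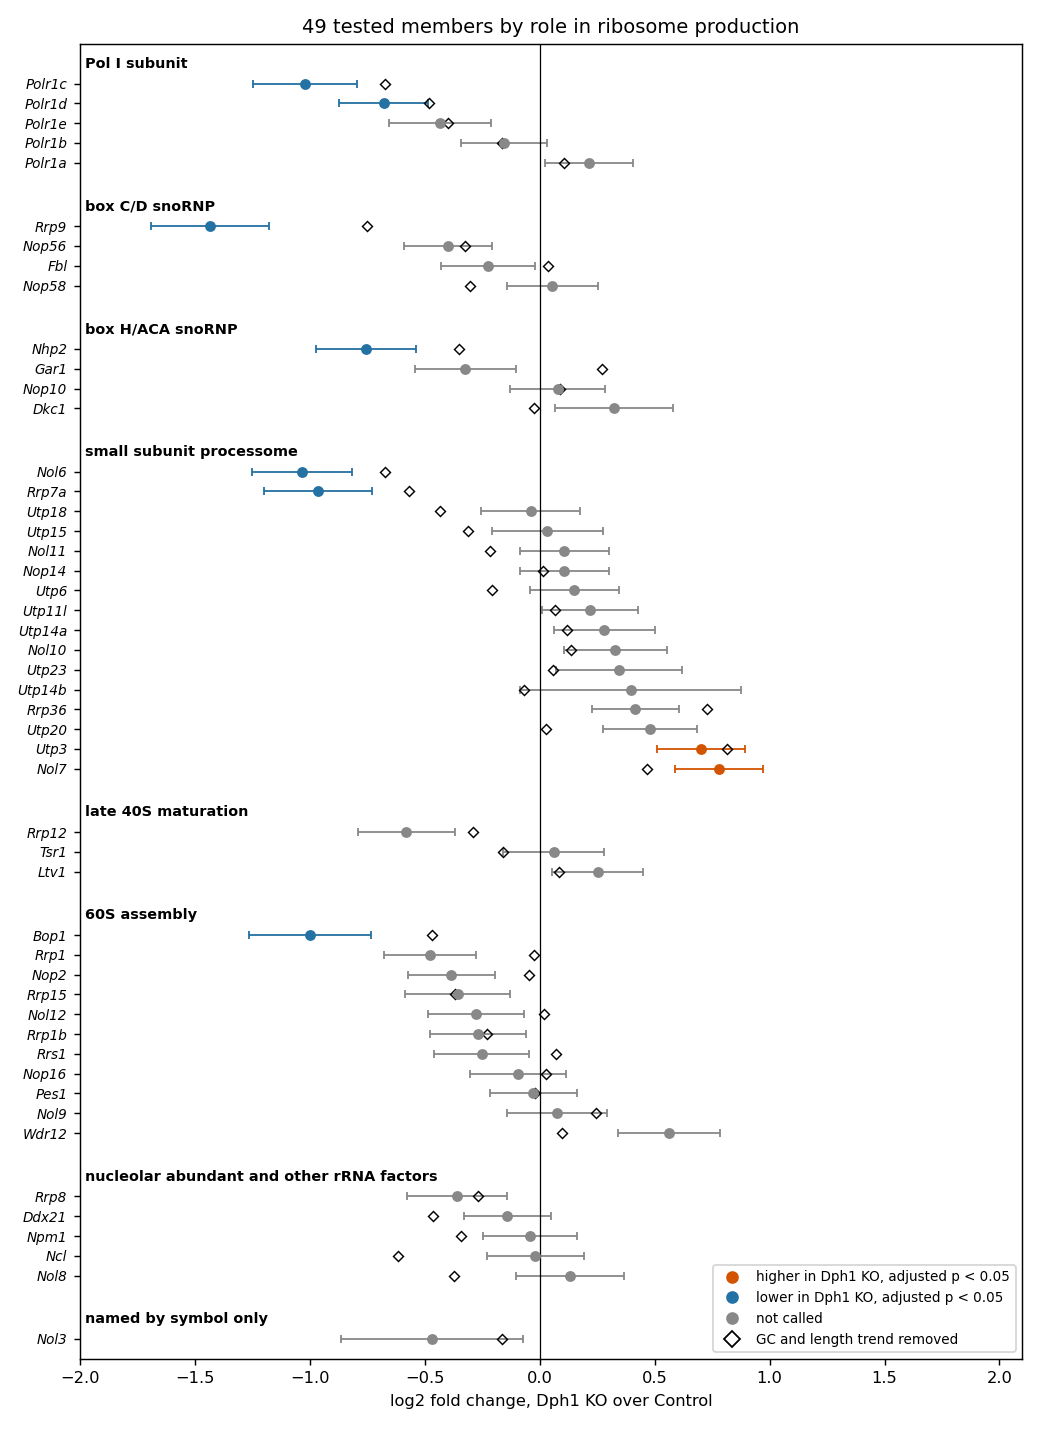
Log2 fold change of Dph1 KO over Control for the 49 tested members, grouped by role, with bars of 1 SE; orange is higher, blue lower and grey not called at an adjusted p of 0.05, and open diamonds are values with a GC and length trend removed. Members of one role lie on both sides of 0, and the diamonds of GC-rich genes such as Rrp9 and Bop1 lie nearer 0 than their circles.

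The members' changes followed the base composition of their transcripts. Across the 49 genes, the log2 fold change and the GC content of the longest transcript had a Spearman correlation of -0.72, against -0.60 over 13093 tested genes with a GC value. Genes of one library share its preparation and depth and are not independent, so these are descriptions. The 7 members that fell had 51.5% to 59.9% GC, and Nol7 and Utp3 had 42.2% and 50.3%. The GC content of all 49 members spanned 40.4% to 59.9% with a median of 50.3%, and that of all tested genes had a median of 49.8%. The deviation of a member from its mean over the libraries correlated with GC at -0.75 and -0.29 in Dph1 KO and 0.66 and 0.57 in Control. As deviations from a common mean, these 4 values are not independent of each other. Over all tested genes the same correlations were -0.67 and -0.18 in Dph1 KO and 0.51 and 0.55 in Control. Dph1 KO replicate 1 was the farther from Control in all 9 called members, by little in Polr1d (43.9 and 45.1 CPM). No share of all genes with this order was computed, and its link to the GC trend was not tested.

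When each library's trend with GC and length was taken out, 5 members fell and 2 rose, where 5.69% of 12517 genes were called lower and 4.99% higher. The calls of Rrp9 (log2 fold change -0.75), Polr1c (-0.67), Nol6 (-0.67), Rrp7a (-0.57) and Utp3 (0.81) were kept. Bop1 (-0.47), Nhp2 (-0.35), Polr1d (-0.48) and Nol7 (0.47) kept their direction and were not called. Ncl (-0.62) and Rrp36 (0.73), which TMM scaling alone did not call, were called here. The member median was then -0.16, against 0.01 over all genes. What sets the GC trend was not tested. Introns held 4.29% and 3.82% of the members' reads in Dph1 KO and 3.30% and 2.36% in Control. Of the reads of all genes they held 10.98% and 8.26% in Dph1 KO and 8.64% and 6.24% in Control, where the genotypes overlapped. Exon reads alone gave the same 9 member calls.

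**Figure D4:**
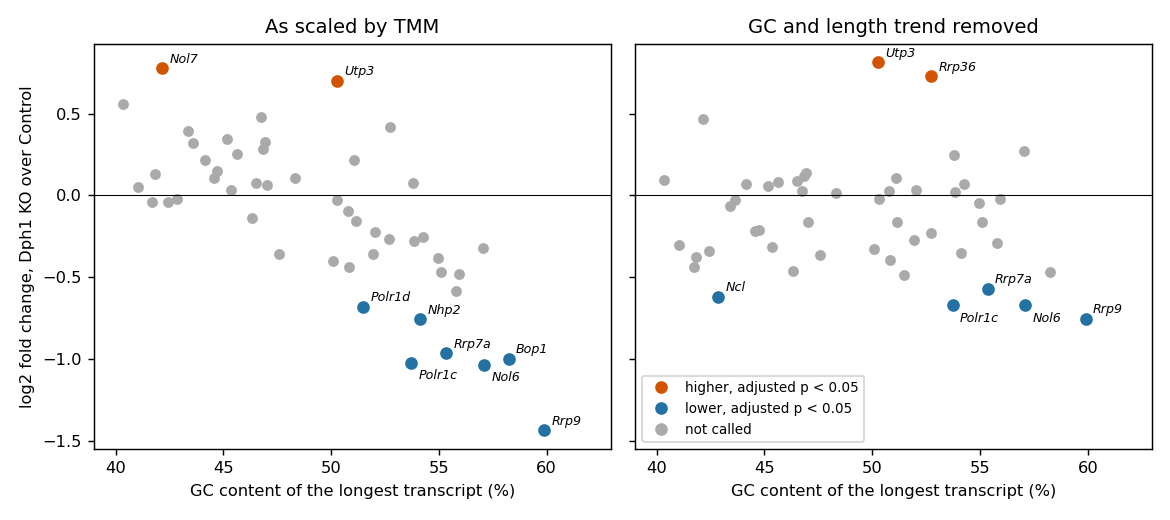
Log2 fold change of Dph1 KO over Control against GC content of the longest transcript (%) for the 49 tested members, as scaled by TMM on the left and with the GC and length trend removed on the right; orange is higher, blue lower and grey not called. The slope on the left (Spearman -0.72) is nearly gone on the right (-0.11), where Rrp9, Nol6, Polr1c and Rrp7a stay among the called genes. The correction fits and subtracts this trend in each library, so the loss of the slope is set by the method.

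Promoter sequences were set beside the calls because members that belong to one pathway can share control elements. RefSeq windows on GRCm38.p6, from 250 bases before to 50 bases after the start site, were matched to 39 of the 50 members, as 45 windows. The E-box CACGTG, the site that MYC binds with MAX and its own reverse complement, was in 9 of the 45 members' windows and in 7.15% of 32851 windows of all genes. The ETS core CCGGAAG, searched on both strands, was in 15 of the 45, or 33.3%, and in 8.86% of all windows, and 4 member windows held both. The members' windows had a median GC content of 58.0%, against 52.7% over all windows, and how much of these shares goes with base composition was not tested. Of the 5 windows of members that fell, 2 held an ETS core and 1 an E-box, and both windows of members that rose held an ETS core and no E-box. A match is a run of letters and no evidence that a factor binds.

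The windows of 2 members that fell and of the 2 that rose are printed 5′ to 3′ on the gene's strand, to show where these letters lie. Capitals mark the ETS core on either strand, no E-box occurs in them, and the start site follows base 250. The windows lie at chr9:106477059-106477358 on the plus strand for Rrp9, chr17:46247996-46248295 on the minus strand for Polr1c, chr13:43398126-43398425 on the plus strand for Nol7 and chr5:88554212-88554511 on the plus strand for Utp3.
Rrp9: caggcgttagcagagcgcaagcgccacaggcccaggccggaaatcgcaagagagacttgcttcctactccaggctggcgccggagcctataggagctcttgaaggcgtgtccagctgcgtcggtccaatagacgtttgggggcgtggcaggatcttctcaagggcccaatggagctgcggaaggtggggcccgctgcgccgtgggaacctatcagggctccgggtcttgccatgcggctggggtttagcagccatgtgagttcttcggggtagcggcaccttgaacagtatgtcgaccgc
Polr1c: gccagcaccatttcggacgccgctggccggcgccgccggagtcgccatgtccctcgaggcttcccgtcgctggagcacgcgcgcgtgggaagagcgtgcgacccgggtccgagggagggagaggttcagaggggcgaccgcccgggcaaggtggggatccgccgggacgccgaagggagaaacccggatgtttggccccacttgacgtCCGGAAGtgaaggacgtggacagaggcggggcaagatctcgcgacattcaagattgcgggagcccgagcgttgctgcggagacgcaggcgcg
Nol7: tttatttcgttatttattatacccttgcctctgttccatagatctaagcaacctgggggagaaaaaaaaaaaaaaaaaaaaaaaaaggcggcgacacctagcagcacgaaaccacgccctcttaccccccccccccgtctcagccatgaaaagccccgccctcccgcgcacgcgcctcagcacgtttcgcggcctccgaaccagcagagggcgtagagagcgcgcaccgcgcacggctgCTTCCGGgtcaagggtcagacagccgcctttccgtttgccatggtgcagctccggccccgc
Utp3: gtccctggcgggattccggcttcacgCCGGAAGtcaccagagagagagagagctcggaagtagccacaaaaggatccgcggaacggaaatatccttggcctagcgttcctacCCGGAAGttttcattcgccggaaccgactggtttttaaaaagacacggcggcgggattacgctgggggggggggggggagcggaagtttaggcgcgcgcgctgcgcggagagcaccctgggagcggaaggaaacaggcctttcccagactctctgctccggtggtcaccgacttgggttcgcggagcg
Rrp9 held neither motif in this window. Relative to the start site, the ETS core began at position -42 in Polr1c, at -11 in Nol7, and at -224 and -138 in Utp3, so genes called in opposite directions shared the same letters.

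Ribosome production genes and their regulators that the name rule does not reach were read in 7 lists. Of 153 tested genes, 16 fell and 6 rose, and 131 were not called, 14.4% called in all beside 12.3% of all tested genes. Their median log2 fold change was 0.09, with 88 positive and 65 negative values. With the GC trend removed the median turned to -0.05, with 63 positive and 90 negative values, and 12 genes were called lower and 3 higher.

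Among 47 other genes of 60S assembly and export, 7 fell and 3 rose. Eif6, whose protein keeps the subunits apart until the large one is mature, had 111 and 170.0 CPM in Dph1 KO, against 320.2 and 419.6 CPM in Control (log2 fold change -1.40, SE 0.28; edgeR adjusted p = 0.0177). Ppan had 10.9 and 12.5 CPM in Dph1 KO, against 25.7 and 24.6 CPM in Control, and fell by 1.10 on the log2 scale (SE 0.20). Wdr18 had 73.0 and 107 CPM in Dph1 KO, against 173 and 221 CPM in Control, and fell by 1.13 (SE 0.26). Eif6, Ppan and Wdr18 were also called lower with the GC trend removed. Xpo1, the export receptor of both subunits, rose by 1.06 on the log2 scale (SE 0.30), and Rpf1 (0.90, SE 0.22) and Nvl (0.84, SE 0.23) rose as well. Rpf1 had 21.5 and 17.8 CPM in Dph1 KO, against 11.97 and 9.12 CPM in Control, and Nvl had 16.6 and 12.4 CPM in Dph1 KO, against 8.21 and 8.01 CPM in Control. Of these 3, Nvl was the one called with the GC trend removed, and Xpo1 had 44.3 and 22.3 CPM in Dph1 KO and 18.2 and 13.7 CPM in Control.

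Among 37 other genes of the small subunit, 1 fell, Bysl, with 25.7 and 31.2 CPM in Dph1 KO, against 44.1 and 57.4 CPM in Control, a log2 fold change of -0.83 (SE 0.21; edgeR adjusted p = 0.0357). A further list held 13 polymerase I genes, which were subunits under other symbols and initiation, termination and nucleolar factors. Its subunit genes Twistnb (log2 fold change 0.18), Cd3eap (-0.45) and Znrd1 (-0.33) were not called. In this list 1 gene fell, Taf1c, part of the complex that marks the ribosomal gene promoter. It had 7.29 and 9.74 CPM in Dph1 KO, against 19.5 and 17.9 CPM in Control (log2 fold change -1.13, SE 0.22; edgeR adjusted p = 0.0158). Of 10 genes for assembly of small nucleolar particles, 2 fell. Ruvbl2, an ATPase gene, had 14.8 and 17.1 CPM in Dph1 KO, against 35.2 and 35.1 CPM in Control (log2 fold change -1.14, SE 0.19; edgeR adjusted p = 0.00862), and Pih1d1 fell by 0.89 (SE 0.24), with 32.8 and 50.9 CPM in Dph1 KO, against 75.5 and 79.2 CPM in Control. Ruvbl2, Taf1c and Ppan were called with any single library left out, and each of the other calls in these lists was lost in at least 1 such fit. With the GC trend removed, Ruvbl2 and Bysl were called and Taf1c and Pih1d1 were not.

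Of 22 RNA polymerase III genes, 2 fell and 1 rose. Gtf3a, which encodes the factor specific to the 5S gene, had 14.7 and 21.04 CPM in Dph1 KO, against 35.95 and 41.6 CPM in Control, and fell by 1.12 on the log2 scale (SE 0.22). Maf1, a repressor of this polymerase, had 20.9 and 30.1 CPM in Dph1 KO, against 44.4 and 57.8 CPM in Control, and fell by 1.002 (SE 0.24). Polr3b, the second-largest subunit gene, rose by 0.89 on the log2 scale (SE 0.22; edgeR adjusted p = 0.0311), at 18.2 and 16.1 CPM in Dph1 KO and 8.21 and 10.4 CPM in Control, while Polr1c and Polr1d, which serve the same enzyme, fell. Polr3b and Gtf3a were called with the GC trend removed and Maf1 was not. Of 15 exosome genes, which trim ribosomal RNA ends, 3 fell and 1 rose. Exosc4, a ring subunit gene, had 34.8 and 54.4 CPM in Dph1 KO, against 88.9 and 145 CPM in Control (log2 fold change -1.39, SE 0.29; edgeR adjusted p = 0.0196). Exosc5 (-0.96) fell, with 34.8 and 49.7 CPM in Dph1 KO and 64.9 and 99.6 CPM in Control. Exosc6 (-0.77) fell, with 8.39 and 11.6 CPM in Dph1 KO and 17.3 and 16.7 CPM in Control. Zcchc7 (0.86), an RNA-binding cofactor gene, rose, with 19.6 and 12.5 CPM in Dph1 KO and 9.08 and 8.62 CPM in Control. With the GC trend removed, 1 of the 15 exosome genes was called lower and 0 higher. Exosc5, Exosc6 and Zcchc7 were then not called, and Exosc6 had a value of 0.082. Of 9 tested genes of the MYC network, Mga rose (35.9 and 23.2 CPM in Dph1 KO, against 16.2 and 16.5 CPM in Control, log2 fold change 0.86, SE 0.23) and 8 were not called, and Mga had a value of 0.09 with the GC trend removed.

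**Figure D5:**
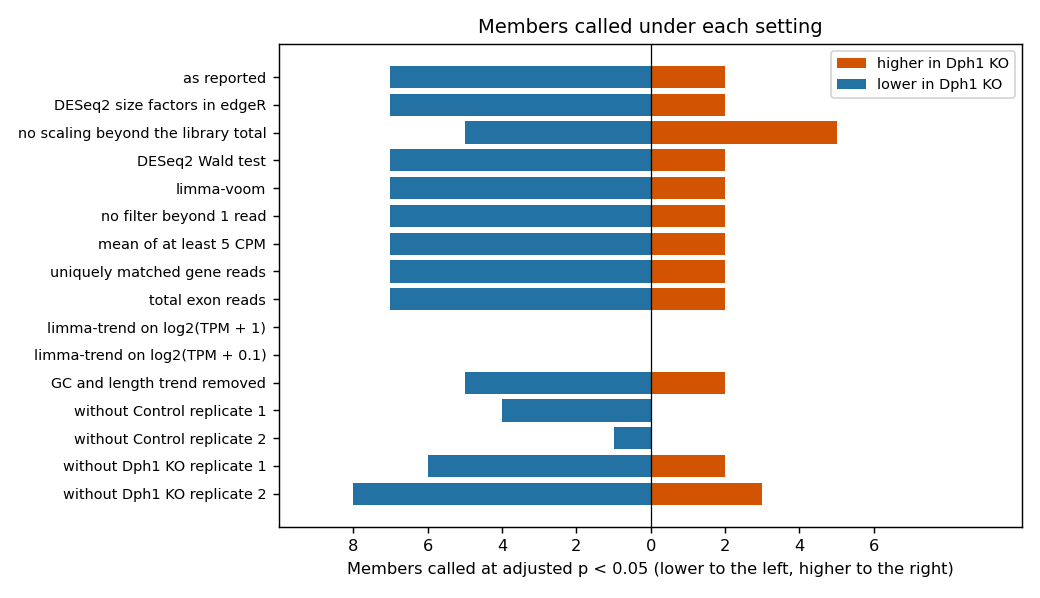
Number of members called at an adjusted p under 0.05 in each setting, lower in Dph1 KO to the left in blue and higher to the right in orange. Counts were smallest with limma-trend on TPM values, which called 0 in either direction, and without Control replicate 2, which called 1 lower.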

How the data were processed

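Liver RNA was sequenced in 2 Dph1 KO and 2 Control libraries, made with a directional mRNA kit, per the labels' protocols. The submitters' processing notes list the build GRCm38 (mm10). No source used here names the aligner or counter, or says if counting was by strand, so overlapping genes on opposite strands may share reads. The authors deposited read counts, total and unique, over genes, exons and introns, per the file headers. The deposited TPM are values scaled by transcript length and library, and the deposited RPKM values, per the file headers, were not used. Deposited ratios are a fraction of unique or intron reads, and other deposited columns hold positions.

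Total gene counts were tested with edgeR 4.0.16 in R 4.3.3 (quasi-likelihood test, filterByExpr by genotype, TMM, Benjamini-Hochberg over 13303 genes, threshold 0.05), with Dph1 KO over Control. The SE is the log2 fold change divided by the square root of F. Coordinates are 1-based from the deposited tables. TMM factors were 1.16 and 1.04 in Dph1 KO and 0.945 and 0.884 in Control, and the biological coefficient of variation was 18.5%. The alternatives used limma 3.58.1, DESeq2 1.42.0, mgcv 1.9.3 (GC of the longest GENCODE transcript and exon length, basis size 6) and, for TPM, limma-trend with pseudocounts of 1 and 0.1. The procedure was tested on simulated data that held no trend with GC content or length, so that test does not cover such a trend. Promoters came from RefSeq (GRCm38.p6). The text gives every library for the called members, the polymerase I subunits named Polr1, the 13 genes named singly and the untested member. It also does so for the 5 members of highest mean TPM. In each further list, it does so for up to 3 called genes per direction by smallest p. Other members and list genes it names were chosen after their values were seen. Members, lists, roles and tests were chosen with earlier results of these data known.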

Additional observations from a re-analysis of the deposited data

How the results depend on the processing

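Without scaling beyond the library total, 5 members and 2634 of all genes were called higher, the further lists had 20 higher, and the member median was 0.23. Limma-trend on log2(TPM + 1) called 0 members in either direction, 2 of all genes higher and 1 lower, and 0 further genes, with a member median of 0.31. With log2(TPM + 0.1) it called 0 members, 13 of all genes higher and 10 lower, and 0 further genes, with a member median of 0.33. Limma-voom called 3 further genes higher. With the GC and length trend removed, 3 further genes were higher, the member median was -0.16, and Exosc6 reversed to 0.082. The cause of these shifts was not tested. Leaving out 1 library gave 0 to 3 members higher and 1 to 8 lower, 180 to 2599 of all genes higher and 346 to 2806 lower, 0 to 25 further genes higher and 4 to 29 lower, and a member median of -0.10 to 0.024. There a lone library is assumed to vary like the other genotype's pair. Among the 40 members that were not called, 24 had the other sign under at least 1 alternative. No paired analysis was possible because the labels carry no replicate numbers: the numbers 1 and 2 used here only name the libraries in order of deposit and tie none together. With 2 libraries per genotype, a member that was not called is not shown to be equal in both, and the few reads of Nol4 and Utp14b leave their levels poorly measured.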
